A study of Mus musculus with 18 samples.

Results

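The genes described here are 7 members of the mouse PYHIN family, namely Ifi203, Ifi204, Ifi208, Ifi209, Ifi214, Mndal and Aim2, out of 28096 genes counted in RNASeq libraries of splenic B cells. Each was found by its Entrez gene number, and all 7 had a row in the count tables. The members were chosen by their read counts in these same 18 libraries, so the values below are a description of them, and no test is offered in their support. The RefSeq annotation of GRCm38 holds 7 more PYHIN genes in the same cluster, of which 6 had a row (Ifi202b, Ifi203-ps, Ifi205, Ifi207, Ifi211 and Ifi213). Ifi206 had no row under its current number. Together the 7 members held between 96.5% and 98.9% of the reads of the 13 PYHIN genes in every library. The row of Entrez gene 240921, which may be an earlier number of Ifi206 (below), is not among the 13. With it the share of the members would be lower.

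Typical PYHIN proteins pair an N-terminal pyrin domain, which binds other pyrin domains, with a C-terminal HIN domain, which binds DNA without regard to sequence. Several are induced by type I interferon, and in the mouse the genes lie side by side in one cluster that has been expanded by duplication. AIM2, the best known, senses DNA in the cytosol and recruits the adaptor ASC (encoded by Pycard) to form an inflammasome that activates caspase-1. IFI204 is related to human IFI16, a DNA sensor, and Mndal is named for its likeness to the myeloid cell nuclear differentiation antigen. The roles of the other members are less well known, and which of them hold both domains was not examined here.

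B cells came from the spleens of C57BL/6 N mice of at least 8 weeks that were wild-type (WT) or lacked Ubiquilin-1 (Ubqln1-/-, marked KO in the plots; exon 2 deleted in embryonic stem cells). They were isolated with a bead-based B-cell kit and left resting, or were stimulated through the B cell receptor (BCR) by an anti-IgM F(ab)2 antibody at 10 μg/mL, or with LPS (K12 E. coli) at 20 μg/mL, in each case for 4 hr. Each of the 6 groups had 3 libraries, and each library was made from RNA of triplicate wells pooled. The paper describes the RNASeq as independent experiments and names a paired test for the expression values it shows from them. Neither the paper nor the labels say which mice gave which library or which libraries were paired. How much of the spread between libraries is technical was not tested. The gene was absent from development on, so a difference between genotypes can have arisen before the cells were cultured.

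Counts summed to between 15368941 and 41072854 per library (median 23257531), and the WT LPS libraries (28590363 to 41072854) were deeper than the Ubqln1-/- LPS libraries (17224952 to 27515442). Ubqln1 itself stood at 229.5 to 339.2 CPM (reads of a gene scaled to a common library size) in WT libraries and 91.4 to 128.4 CPM in Ubqln1-/- libraries, which did not overlap; reads of exons outside the deletion are still counted. All 8 B cell markers were read in every group. The markers of NK cells and of neutrophils each summed to at most 1.14 CPM in any library, and those of erythroid cells to at most 4.56 CPM. The 10 macrophage and monocyte markers summed to 24.2 to 58.3 CPM, carried by Adgre1 (mean 14.2 CPM) and Cd68 (9.71 CPM), while Csf1r and Cd14 reached at most 3.39 and 1.01 CPM. In the T cell list the sum was carried by Lck and Cd5, and Cd3e had at most 3 reads in any library.

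All 14 genes lie on chromosome 1 of GRCm38, from the start of Aim2 at 173349547 to the end of Ifi205 at 174031755. Among the members, Aim2 (chr1:173349547-173466040), Ifi209 (chr1:173630859-173647928) and Ifi208 (chr1:173673628-173698393) are on the plus strand. Ifi214 (chr1:173521311-173535957), Mndal (chr1:173857215-173880382) and Ifi203 (chr1:173920400-173942866) are on the minus strand, and Ifi204 lies at chr1:173747293-173767069. Promoter windows from 250 bases before to 50 after the start were given by RefSeq for 6 of the 7 members (not Ifi204) and for 6 of the other PYHIN genes (not Ifi203-ps). They were searched on both strands for 5 motifs, and a match is a run of letters, not a binding site. A gene was counted if any of its windows matched, and Mndal and Ifi203 have more than 1. The shares of all genes are per window and include the PYHIN windows, so the units differ. The IRF motif AANNGAAA was found in 5 of the 6 members and in 10 of the 12 genes, against 23.9% of 32851 promoter windows of all genes. The interferon-stimulated response element core GAAANNGAA, which overlaps the IRF motif, was found in 4 of the 6 members and in 9 of the 12 genes, against 8.56% of all windows. The PU.1 core GAGGAA was in 3 of the 6 members (28.3% of all windows). The gamma-activated sequence TTCNNNGAA (8.3% of all windows) was in none of the 6 members and in Ifi202b alone among the others, and the NF-kB letters GGGNNTTCC (5.82%) were in none of the 12.

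In each of these 10 genes 1 match lay in nearly the same stretch of DNA. The second Mndal promoter entry and Ifi205 also hold IRF matches elsewhere, which are not shown. These 30 bases are shown, 5′ to 3′ on the strand of each gene (GRCm38.p6), because the same letters recur upstream of genes that fell with anti-IgM and of genes that were not called, such as Ifi207. Capitals mark the letters that match the IRF motif.
Ifi214, chr1:173536017-173536046, minus strand: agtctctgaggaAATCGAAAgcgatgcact
Ifi209, chr1:173630770-173630799, plus strand: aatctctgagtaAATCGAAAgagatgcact
Ifi208, chr1:173673597-173673626, plus strand: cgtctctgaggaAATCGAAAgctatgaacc
Mndal, chr1:173880204-173880233, minus strand: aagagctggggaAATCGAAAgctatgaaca
Ifi203, chr1:173942508-173942537, minus strand: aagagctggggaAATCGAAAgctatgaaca
Ifi206, chr1:173491339-173491368, minus strand: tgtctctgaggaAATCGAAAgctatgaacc
Ifi213, chr1:173599326-173599355, minus strand: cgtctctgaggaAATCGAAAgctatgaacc
Ifi207, chr1:173741831-173741860, minus strand: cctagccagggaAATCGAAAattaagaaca
Ifi211, chr1:173913064-173913093, minus strand: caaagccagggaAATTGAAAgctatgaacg
Ifi205, chr1:174031870-174031899, minus strand: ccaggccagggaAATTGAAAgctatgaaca
The first 5 lines are members and the others are the remaining PYHIN genes with such a match. The capitals begin 77 bases upstream of the start in Ifi214 and in Ifi209 and 56, 34 and 33 bases upstream in Ifi208, Mndal and Ifi203 (the second of 2 annotated starts of Ifi203). In 7 of the 12 genes the core read GAAATCGAA, letters that stand in 30 of the 32851 windows (0.0913%). These exact letters were taken from the PYHIN windows, which are themselves among the 30, so the share is a description. Ifi211 and Ifi205 have GAAATTGAA instead, which stands in 0.402% of all windows. The Ifi209 stretch has the IRF letters without the longer core. Mndal and Ifi203 have the same 30 bases. As duplicated genes, these promoters are not independent of each other.

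The 250 bases upstream of Ifi214, the member called between genotypes after LPS, and of Aim2, the member without an IRF match, are given in full. For Aim2 they precede a start that lies inside the gene's span. The bases before the beginning of that span (173349547) were not searched. Capitals mark the IRF, response element and PU.1 letters, which in Ifi214 run into each other and in Aim2 are a pair of separate PU.1 matches.
Ifi214, chr1:173535958-173536207, minus strand: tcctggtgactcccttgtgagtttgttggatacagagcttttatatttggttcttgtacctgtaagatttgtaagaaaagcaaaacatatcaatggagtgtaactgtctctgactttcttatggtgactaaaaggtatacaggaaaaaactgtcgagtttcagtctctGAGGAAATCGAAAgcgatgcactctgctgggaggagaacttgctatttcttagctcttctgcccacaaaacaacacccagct
Aim2, chr1:173420354-173420603, plus strand: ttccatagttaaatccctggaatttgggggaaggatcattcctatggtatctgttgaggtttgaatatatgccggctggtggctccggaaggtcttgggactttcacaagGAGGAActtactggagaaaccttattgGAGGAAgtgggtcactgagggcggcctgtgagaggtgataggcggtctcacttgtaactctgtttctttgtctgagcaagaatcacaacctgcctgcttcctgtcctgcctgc

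The cluster also bears on how far the counts of one member can be told from another's. Of the distinct 50-base windows (the length of a read) in the GENCODE transcripts of Aim2, 99.3% occur in no other gene. The share was 91.2% for Ifi214, 87.6% for Ifi203, 83.7% for Ifi209, 81.4% for Mndal, 80% for Ifi204 and 79.1% for Ifi208. The matches outside each gene were mostly with another gene of the cluster. Ifi209 shared 15.9% of its windows with Ifi214, Ifi208 shared 18.1% with Ifi213, and Ifi204 shared 14.8% with Ifi211. Ifi211, which is no member, had only 27.2% of its windows to itself. How reads with more than 1 match were counted is not given in the sources used here, so small differences between these pairs are uncertain. In GENCODE, exons of Mndal and Ifi203 overlap by 37 bases on the same strand.

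**Figure D1:**
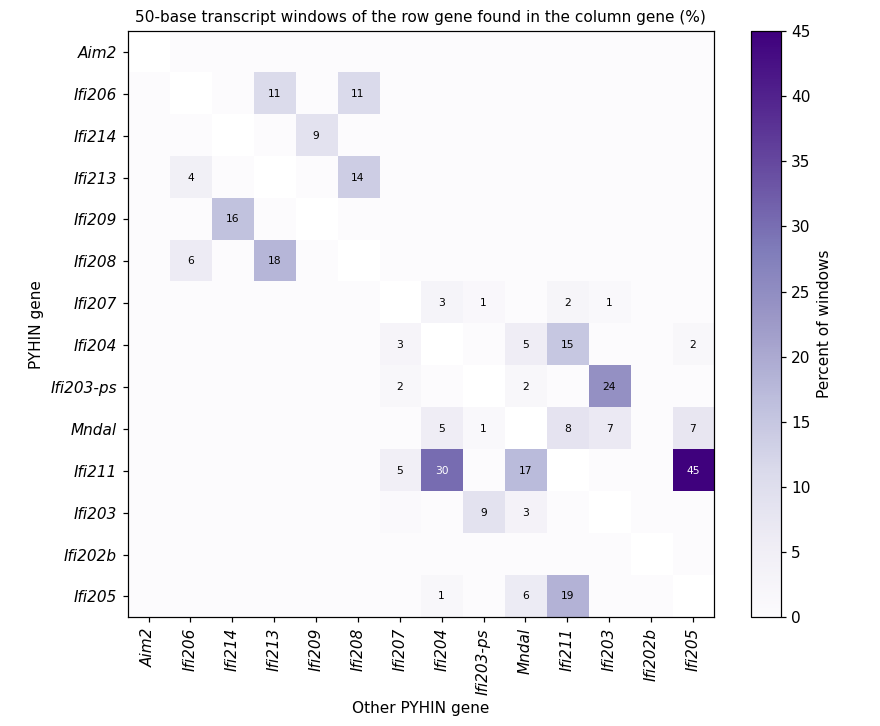
Percent of distinct 50-base transcript windows of each PYHIN gene (rows, in order along the cluster) that occur exactly in the transcripts of another (columns); shares of at least 1% are printed. Ifi211 shares the most, 44.7% with Ifi205 and 30.1% with Ifi204, and Aim2 and Ifi202b share no window with another PYHIN gene.

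Levels were compared between genes as RPKM, the CPM divided by the width of the gene in kilobases. In resting WT cells the highest member was Mndal, at 83.3, 71.0 and 64.2 RPKM in replicates 1, 2 and 3 (mean 72.8 ± 9.67, SD). Ifi209 followed at 71.0, 65.9 and 62.8 RPKM, a range that overlapped that of Mndal. Ifi203 was at 48.0, 36.8 and 37.7 RPKM, just above Aim2 at 33.8, 30.8 and 34.7 RPKM. Lower still were 10.2, 10.3 and 10.7 RPKM for Ifi214 and 1.03, 1.04 and 0.967 RPKM for Ifi208. Ifi204, the relative of IFI16, was close to absent in these cells, with 1, 5 and 3 reads in the 3 libraries. Among all genes tested, 79.6% had a lower mean RPKM than Aim2 in resting WT cells and 50.4% a lower one than Ifi214. The order was the same in resting Ubqln1-/- cells, in which the means were 77.2, 63.9, 43.9, 31.8, 9.57 and 1.11 RPKM for Mndal, Ifi209, Ifi203, Aim2, Ifi214 and Ifi208.

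**Figure D2:**
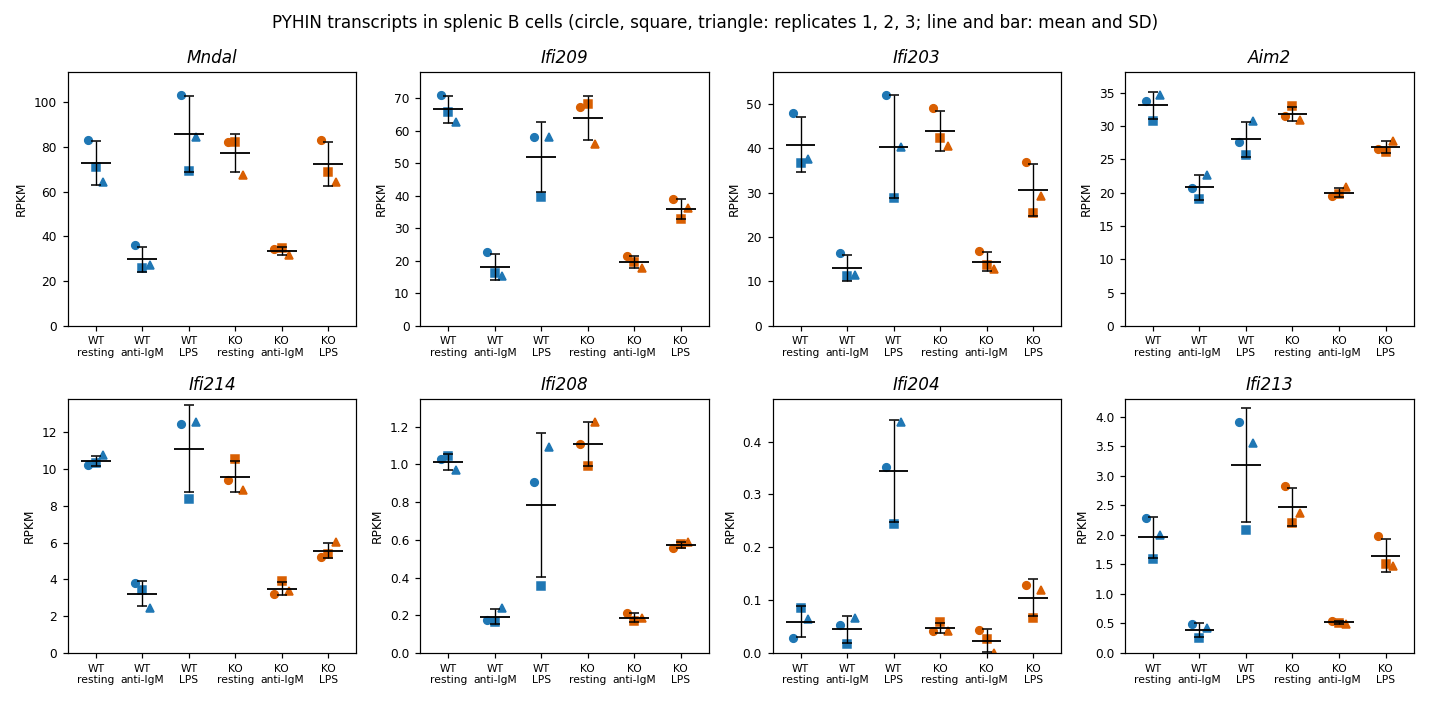
RPKM of the 7 members and of Ifi213 in each of the 18 libraries, by genotype and condition; points are libraries, horizontal lines group means and bars 1 SD (n = 3), on linear axes that start at 0. In the 6 members other than Ifi204 the anti-IgM libraries lie below all resting libraries of their genotype, and the 3 Ubqln1-/- LPS libraries of Ifi214 lie below the 3 WT LPS libraries.

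The first comparison asked how the family responded to BCR ligation. After 4 hr of anti-IgM, 6 of the 7 members were lower than in resting cells in both genotypes, and every stimulated library was below every resting library. The same held for 32.8% of all genes tested in WT and 35.7% in Ubqln1-/- cells. Ifi209 stood at 22.6, 16.1 and 15.5 RPKM in WT cells with anti-IgM, against at least 62.8 RPKM at rest, a log2 fold change of -1.88 (SE 0.154). Ifi208 showed the steepest drop, from at least 0.967 RPKM at rest to 0.174, 0.165 and 0.237 RPKM (13, 13 and 14 reads), with a log2 fold change of -2.41 (SE 0.331). The ratio of the summed reads, scaled to library size, was 0.185 (95% exact interval 0.128 to 0.262, for counting error only). Ifi214 fell to 3.82, 3.40 and 2.47 RPKM, a log2 fold change of -1.68 (SE 0.165).

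Ifi203 was at 16.4, 11.2 and 11.4 RPKM with anti-IgM (log2 fold change -1.65, SE 0.204) and Mndal at 36.0, 25.8 and 27.1 RPKM (log2 fold change -1.30, SE 0.152). Aim2 was at 20.6, 19.0 and 22.7 RPKM (log2 fold change -0.67, SE 0.0742). Its share of the family's summed RPKM therefore went from 14.6% ± 1.4 at rest to 24.4% ± 3.8 (SD). Ifi204 had 1 to 3 reads, which is too few for a direction (ratio 0.67, interval 0.212 to 2.02).

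In Ubqln1-/- cells the same 6 members were lower with anti-IgM, with log2 fold changes of -2.55 (SE 0.319) for Ifi208, -1.71 (SE 0.152) for Ifi209, -1.60 (SE 0.203) for Ifi203, -1.45 (SE 0.162) for Ifi214, -1.21 (SE 0.151) for Mndal and -0.67 (SE 0.0739) for Aim2. Over the 7 members the median log2 fold change was -1.65 in WT and -1.45 in Ubqln1-/- cells, and over all 14161 genes tested it was -0.01 and -0.02. Calls at an adjusted p under 0.05 (edgeR quasi-likelihood test, Benjamini-Hochberg) took in 32.2% of all genes as lower and 32.4% as higher in WT cells, and 32.4% as lower and 32.9% as higher in Ubqln1-/- cells. Summed over the 13 PYHIN genes, the reads went from 635 ± 55.9 to 231 ± 35.9 CPM in WT cells and from 643 ± 54.8 to 247 ± 15.3 CPM in Ubqln1-/- cells (SD, n = 3).

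Values that moved with anti-IgM beside these were those of the B cell markers, of which 7 of 8 fell in both genotypes, their sum going from 7850 to 9490 CPM at rest to 3080 to 3960 CPM in WT cells. In a bulk sample, fewer cells of a type and less RNA per cell cannot be told apart. The macrophage and monocyte markers summed to 30.9 to 57.0 CPM at rest and 25.5 to 31.2 CPM with anti-IgM in WT cells. The T cell list rose from 47.5 to 62.1 CPM to between 135 and 232 CPM, through Lck and Cd5, with Cd3e at 3 reads or fewer. The part of the B cell markers or of other cells in the result was not tested.

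The LPS comparison gave a mixed picture. In WT cells Mndal was at 103.2, 69.3 and 84.3 RPKM (log2 fold change 0.23, SE 0.148) and Ifi203 at 52.0, 28.8 and 40.4 RPKM (log2 fold change -0.01, SE 0.196), and both overlapped their resting libraries. Ifi209 was at 58.0, 39.7 and 58.1 RPKM (log2 fold change -0.36, SE 0.147) and Aim2 at 27.6, 25.6 and 30.8 RPKM (log2 fold change -0.24, SE 0.0731). Each lay below all resting libraries, Aim2 by little (at most 30.78 against at least 30.84 RPKM), as did 30.5% of all genes tested. Replicate 2 of the WT LPS group was the lowest of its group in all 7 members.

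Ifi214 and Ifi208 overlapped their resting levels in WT cells. Ifi214 was at 12.4, 8.35 and 12.5 RPKM with LPS (log2 fold change 0.09, SE 0.150) and Ifi208 at 0.908, 0.357 and 1.09 RPKM (log2 fold change -0.39, SE 0.271). The value of Ifi208 rests on replicate 2, without which it was -0.02. Ifi204 was the one member that was higher with LPS in WT cells, with 25, 22 and 28 reads against 1, 5 and 3 at rest. The log2 fold change was 2.38 (SE 0.453) and the ratio of summed reads 5.21 (interval 2.6 to 11.8). Even then its level was only 0.352, 0.244 and 0.437 RPKM, and it passed the filter on low counts only through this group.

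In Ubqln1-/- cells with LPS, 5 members stood below all of their resting libraries, as did 34.0% of all genes. Ifi208 was at 0.557, 0.579 and 0.588 RPKM (log2 fold change -0.94, SE 0.287), Ifi209 at 39.1, 32.8 and 36.1 RPKM (-0.83, SE 0.149) and Ifi214 at 5.24, 5.40 and 6.02 RPKM (-0.79, SE 0.159). Ifi203 was at 36.9, 25.4 and 29.3 RPKM (-0.53, SE 0.198) and Aim2 at 26.5, 26.1 and 27.8 RPKM (-0.25, SE 0.0738). Mndal overlapped its resting range at 83.2, 68.8 and 64.4 RPKM (-0.10, SE 0.148). Ifi204 had 5, 4 and 5 reads against 2, 3 and 2 at rest (ratio 2.09, interval 0.791 to 6.13).

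With LPS, Aim2 and Ifi209 were called lower in WT cells and 5 members were called lower in Ubqln1-/- cells. Ifi204 was also called higher in WT cells, for 3 members in all, but as it entered the test through this group, nothing is read from its call. Among all genes, 30.1% were called lower and 31.2% higher in WT cells, and 30.2% lower and 30.6% higher in Ubqln1-/- cells. With the replicate number as a block, Mndal was also called higher in WT cells, for 4 members, where 68% of all genes were called in either direction. Beside these values, the 7 dendritic cell markers summed to 42.4 to 73.0 CPM in WT LPS libraries against 14.1 to 23.8 CPM at rest. Zbtb46 and Flt3 were the 2 of the 5 tested markers called higher, in both genotypes, and Itgax was called lower in Ubqln1-/- cells. Siglech and Cd209a had at most 10 reads in any library. The macrophage and monocyte markers summed to 24.2 to 25.9 CPM with LPS in WT and 26.0 to 29.7 CPM in Ubqln1-/- cells, and 5 of 8 tested (Adgre1, Csf1r, Itgam, Lyz2 and Mrc1) fell in WT cells while Cd68 rose. The part of other cells in the LPS values was not tested.

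**Figure D3:**
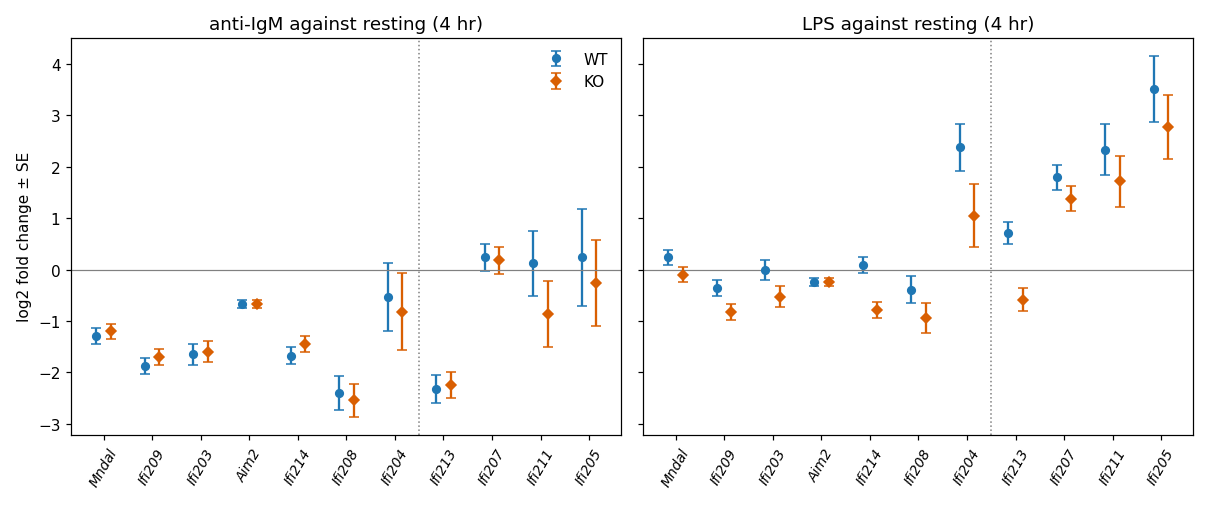
Log2 fold change ± SE of each PYHIN gene against resting cells of the same genotype, for anti-IgM (left) and LPS (right); circles are WT, diamonds Ubqln1-/-, and the dotted line parts the 7 members from 4 other PYHIN genes. The 6 members other than Ifi204 lie between -0.67 and -2.55 with anti-IgM, and between 0.23 and -0.94 with LPS.

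Both stimuli were set against the same resting libraries, so their fold changes are not independent. Compared directly, the 6 members other than Ifi204 were all called higher with LPS than with anti-IgM in both genotypes. Ifi204 was called too, with the same reservation as above. In WT cells the log2 differences were 2.91 (SE 0.471) for Ifi204, 2.02 (SE 0.329) for Ifi208, 1.77 (SE 0.163) for Ifi214, 1.63 (SE 0.204) for Ifi203, 1.53 (SE 0.152) for Mndal, 1.52 (SE 0.152) for Ifi209 and 0.43 (SE 0.0737) for Aim2. In Ubqln1-/- cells the difference of Ifi214 was 0.67 (SE 0.167) and that of Ifi209 0.88 (SE 0.151), with 0.42 (SE 0.0742) for Aim2. Of all genes, 17.4% were called higher and 15% lower in WT cells, and 16.8% higher and 14.5% lower in Ubqln1-/- cells.

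Along the cluster, the genes lower with anti-IgM were Aim2, Ifi214, Ifi213, Ifi209 and Ifi208 on one side, and Mndal and Ifi203 on the other. Between these lie Ifi207 and Ifi204, and beside them Ifi211 and Ifi205, which were not called with anti-IgM and were higher with LPS in WT cells. Ifi211 stands between Mndal and Ifi203, so genes called lower and genes not called are interleaved. Ifi204, Ifi211 and Ifi205 had at most 5, 7 and 4 reads in a resting WT library, few for a fall to be called. They also passed the filter only through LPS libraries, so no separate kind of gene is read from them. This layout is described for 11 genes and was not tested.

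**Figure D4:**
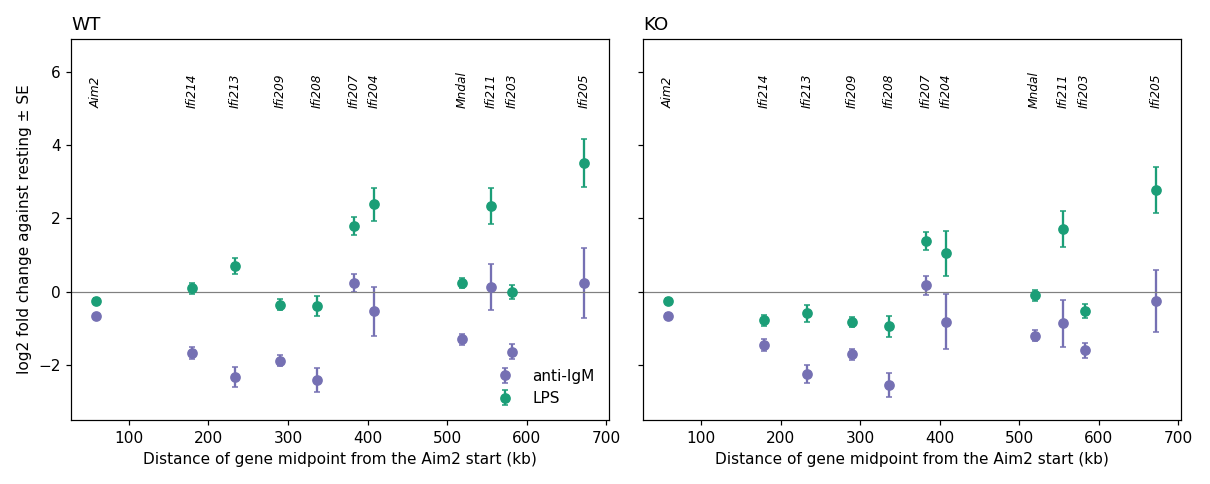
Log2 fold change against resting cells ± SE for the 11 PYHIN genes tested, placed by the distance of the gene's midpoint from the beginning of the Aim2 span (kb), in WT (left) and Ubqln1-/- cells (right). With LPS the 4 highest WT values, 3.51, 2.38, 2.34 and 1.79, belong to Ifi205, Ifi204, Ifi211 and Ifi207. These genes were not called with anti-IgM, but Ifi205, Ifi204 and Ifi211 had few resting reads for a fall to be called. Ifi205, Ifi204 and Ifi211 also passed the filter only through LPS libraries, so nothing is read from their pattern.

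The comparison of genotypes asked whether loss of Ubiquilin-1 altered the family in any condition. In resting cells the members' log2 differences between Ubqln1-/- and WT cells lay between -0.41 (Ifi204, SE 0.666) and 0.13 (Ifi208, SE 0.271), and all 7 ranges overlapped. With anti-IgM they lay between -0.69 (Ifi204, SE 0.742) and 0.18 (Mndal, SE 0.151), and again all overlapped. In edgeR 0 members were called in either condition, 0 had an unadjusted p under 0.05, and limma with voom and DESeq2 called 0 as well. Of all genes, 0.0565% were called at rest and 0.0989% with anti-IgM, and 597 and 728 of 14161 had an unadjusted edgeR p under 0.05.

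With LPS, the libraries of Ifi214, Ifi209 and Ifi204 did not overlap between genotypes, and Ifi214 alone was called. Ifi214 stood at 5.24, 5.40 and 6.02 RPKM against 12.4, 8.35 and 12.5 RPKM, and its log2 difference was -1.0 (SE 0.157). Ifi209, the gene with which it shares most windows, was at 39.1, 32.8 and 36.1 RPKM against 58.0, 39.7 and 58.1 RPKM (-0.53, SE 0.148), and here the groups were separated by little. Ifi204 had 5, 4 and 5 reads against 25, 22 and 28 (-1.74, SE 0.416; ratio of summed reads 0.297, interval 0.155 to 0.531). As Ifi204 passed the filter on low counts only through the WT LPS group, nothing is read from its separation here. By replicate number, Ifi214 was lower by 1.24, 0.62 and 1.05 on the log2 scale (CPM with a prior count of 2).

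The remaining members overlapped between genotypes after LPS. The log2 differences were -0.43 (SE 0.287) for Ifi208, -0.41 (SE 0.197) for Ifi203, -0.25 (SE 0.148) for Mndal and -0.06 (SE 0.0734) for Aim2. Ifi203 and Mndal were lower in Ubqln1-/- cells in 3 of 3 same-numbered pairs, and Ifi208 and Aim2 in 2 of 3. The summed PYHIN reads were 605 ± 119 CPM in WT and 468 ± 49.8 CPM in Ubqln1-/- cells, a log2 difference of -0.37 (SE 0.132). Of all genes, 3.35% had 3 Ubqln1-/- LPS libraries below all 3 WT ones. The 4 plasma cell markers summed to 185 to 199 CPM in Ubqln1-/- and 219 to 420 CPM in WT LPS libraries, and also at rest did not overlap (284 to 312 against 354 to 585 CPM), whereas B cell marker sums overlapped. The part of such cells, and of the greater depth of the WT LPS libraries, was not tested.

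In the comparison of genotypes after LPS, 1 member (Ifi214) was called by edgeR, against 0.0424% of all genes (6 of 14161). An unadjusted edgeR p under 0.05 was reached by 3 members (Ifi214, Ifi209 and, with the reservation above, Ifi204), and by 557 of the 14161 genes. DESeq2 called 1 and limma with voom called 0. Leaving out any 1 LPS library other than replicate 2 of the WT group lost the call, as did leaving out any of the 3 WT resting libraries, WT anti-IgM replicate 2, Ubqln1-/- resting replicate 1 or Ubqln1-/- anti-IgM replicate 3. Without WT LPS replicate 2, the lowest of its group, 2 members were called. The same-numbered LPS libraries of the genotypes deviated together (correlations 0.253 to 0.319). With the replicate number as a block, 4 members were called, Ifi214, Ifi209, Ifi204 and Ifi203, and 0.883% of all genes. A block fit to the 6 LPS libraries alone, added after the data were seen, called 3 members (Ifi214, Ifi209 and Ifi203) and 1.12% of 13623 genes. The members were chosen with this contrast in view, and nothing is read from these counts.

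Whether the response itself differed between genotypes was put as an interaction. For LPS the difference of the log2 fold changes was -1.33 (SE 0.831) for Ifi204, -0.87 (SE 0.219) for Ifi214, -0.55 (SE 0.395) for Ifi208 (-0.92 without WT LPS replicate 2), -0.51 (SE 0.278) for Ifi203, -0.47 (SE 0.209) for Ifi209, -0.33 (SE 0.209) for Mndal and -0.01 (SE 0.104) for Aim2. For anti-IgM it was 0.23 (SE 0.230) for Ifi214, 0.18 (SE 0.211) for Ifi209 and 0.00 (SE 0.105) for Aim2. In edgeR 0 members were called for either response, 2 had an unadjusted p under 0.05 for LPS and 0 for anti-IgM, and limma with voom and DESeq2 called 0. Of all genes, 0% were called for LPS and 0% for anti-IgM, and 220 and 140 of 14161 had an unadjusted edgeR p under 0.05. Leaving out WT LPS replicate 2 gave 1 member for LPS.

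**Figure D5:**
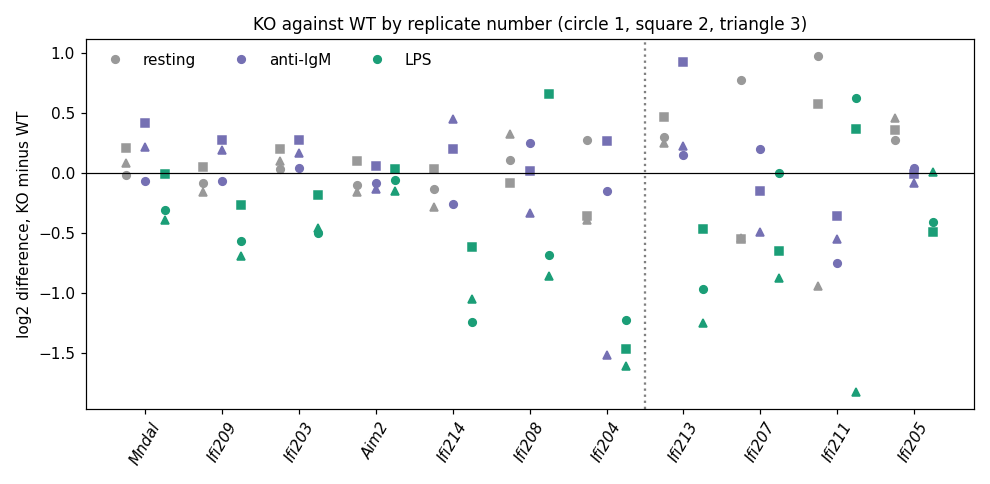
Log2 difference between Ubqln1-/- and WT libraries of the same replicate number (log2 CPM, prior count 2) for 11 PYHIN genes, in resting cells (grey), with anti-IgM (purple) and with LPS (green); the dotted line parts the 7 members from the others. For Ifi214, Ifi209, Ifi204, Ifi203, Mndal and Ifi213 all 3 LPS points lie below 0, in Mndal one of them at -0.01, whereas the LPS points of Aim2 lie between -0.15 and 0.03. Ifi204 passed the filter only through the WT LPS libraries, so nothing is read from its LPS points.

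The other PYHIN genes may share reads with members, and their tests are those of the fit over all genes. Ifi213, a neighbor of Ifi214 that shares 13.6% of its windows with Ifi208, was at 2.29, 1.59 and 1.99 RPKM in resting WT cells and fell with anti-IgM to 0.491, 0.254 and 0.416 RPKM (log2 fold change -2.33, SE 0.272, edgeR adjusted p = 1.11e-06). With LPS it rose in WT cells to 3.91, 2.09 and 3.55 RPKM (0.71, SE 0.220, adjusted p = 0.0103) and fell in Ubqln1-/- cells from 2.83, 2.20 and 2.37 to 1.97, 1.5 and 1.48 RPKM (-0.59, SE 0.229, adjusted p = 0.0349). The WT ranges overlapped and the Ubqln1-/- ranges did not. The difference between these responses was -1.30 (SE 0.317), with an adjusted p of 0.9998 by edgeR over all genes and 0.0674 with the replicate block, so it was not called. Between genotypes after LPS, Ifi213 differed by -0.95 (SE 0.223, adjusted p = 0.239), and with the block by -0.91 (SE 0.140, adjusted p = 0.00569).

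Ifi207 rose with LPS in both genotypes, Ifi211 and Ifi205 had more reads with LPS, and none of the 3 was called with anti-IgM. Ifi207 had 160, 264 and 225 reads in WT LPS libraries against 21, 53 and 45 at rest (log2 fold change 1.79, SE 0.236, edgeR adjusted p = 6.1e-06) and rose by 1.38 (SE 0.246, adjusted p = 0.000135) in Ubqln1-/- cells. Ifi211 had 24, 36 and 66 reads against 2, 7 and 7 (2.34, SE 0.490), and most of its windows are shared. Ifi205 had 18, 72 and 61 reads against 1, 4 and 3 (3.51, SE 0.648). Both passed the filter on low counts only through the LPS libraries, so their values with LPS are a description. None of the 3 exceeded 2.31 RPKM in any library. Ifi202b and Ifi203-ps did not pass the filter, with at most 11 and 7 reads in a library. Ifi202b had 24 reads with anti-IgM against 5 at rest in WT cells (ratio 4.14, interval 1.55 to 13.9) and 23 against 3 in Ubqln1-/- cells (ratio 5.9, interval 1.78 to 30.7).

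As a description of which genes were most like each member, log2 CPM was correlated over the 18 libraries with that of 9098 other genes. These had a mean of at least 10 CPM and were not among the 13 PYHIN genes. The points share the 3 conditions and the 18 libraries. Ifi203 was most like Ddx58 (r = 0.994), which encodes the RNA sensor RIG-I, and Ifi209 was most like Stat2 (r = 0.986), a subunit of the interferon-activated factor ISGF3. Ifi214 was most like Trex1 (r = 0.955), a DNA exonuclease of the cytosol, and Aim2 was most like Kbtbd11 (r = 0.985). Ifi208 was most like Cyld (r = 0.969), and Ifi204 was most like Tor3a (r = 0.885), followed by Eif2ak2 and Irf9 (0.884 and 0.88).

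Mndal was most like Entrez gene 100862472 (r = 0.995), which the tables used here do not name, followed by Gm1966 (0.987) and Gbp9 (0.982). Ifi213 was most like Entrez gene 240921 (r = 0.99), also without a current name in these tables. RefSeq lists EG240921 among the synonyms of Ifi206, so gene 240921 may itself belong to the family. That gene stood at 28.1 ± 3.9 CPM in resting WT cells, 5.23 ± 1.5 CPM with anti-IgM and 43.8 ± 13 CPM with LPS, and at 33.0 ± 2.7, 6.28 ± 0.79 and 24.4 ± 6.9 CPM in Ubqln1-/- cells (SD, n = 3). Among the members, the pairwise correlations of Aim2 were between 0.849 (Mndal) and 0.961 (Ifi208), apart from 0.345 with Ifi204.

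Genes that act with or upstream of the family were taken as lists. Of the 22 tested genes of interferon signaling, 16 fell with anti-IgM in WT cells and 3 rose, and 17 fell and 3 rose in Ubqln1-/- cells, where 32.2% and 32.4% of all genes fell and 32.4% and 32.9% rose. Stat2 was called lower (log2 fold change -1.17, SE 0.109), as was Jak1, a kinase of the interferon receptors (-0.89, SE 0.0709), whereas Irf4 (2.24, SE 0.0763) and Irf8 (0.79, SE 0.0672), transcription factors of the B cell lineage, rose. The median of the list was -0.60 on the log2 scale in WT cells, against -0.01 for all genes. With LPS 9 rose and 5 fell in WT cells, and 8 rose and 6 fell in Ubqln1-/- cells, against 31.2% and 30.6% of all genes that rose and 30.1% and 30.2% that fell.

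Irf9, the DNA-binding subunit of ISGF3, was the 1 gene of these 22 called between genotypes after LPS, where 0.0424% of all genes were called. It was at 130 to 158 CPM in WT and 97.5 to 118 CPM in Ubqln1-/- LPS libraries, a log2 difference of -0.46 (SE 0.0781, edgeR adjusted p = 0.0439). At rest its means were 75.7 ± 1.1 and 72.0 ± 3.6 CPM (SD, n = 3). The difference between its LPS responses in the genotypes (-0.39, SE 0.112) was not called. Alternative settings were recorded for the members only, so how far the call of Irf9 depends on them was not tested.

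Of 12 tested inflammasome genes, some of which (Nlrc4, Naip2, Naip5) belong to other inflammasomes than that of AIM2, 7 fell and 1 rose with anti-IgM in WT cells, and 6 fell and 2 rose with LPS. Of all genes 32.2% fell and 32.4% rose with anti-IgM, and 30.1% fell and 31.2% rose with LPS. Pycard, the adaptor that AIM2 recruits, fell with both stimuli in both genotypes. Casp8 fell (-1.22, SE 0.0746 with anti-IgM; -0.51, SE 0.0727 with LPS, in WT cells), as did Gsdmd, the pore-forming protein, with anti-IgM (-0.54, SE 0.0643). Casp4, which encodes the caspase that binds LPS in the cytosol, rose with both (1.71, SE 0.106 and 0.81, SE 0.104). Casp1 fell with LPS in both genotypes. Il1b was called higher with LPS in both genotypes.

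Of the 20 genes of cytosolic DNA sensing, 8 rose and 7 fell with anti-IgM in WT cells, near the shares of all genes (32.4% and 32.2%). Sting1, Trex1, Zbp1 and Samhd1 were among those that fell, and Samhd1, a nucleotide hydrolase, had a log2 fold change of -1.74 (SE 0.174, from 662 ± 110 to 198 ± 46 CPM). Dhx9 and Ddx41 rose (0.76, SE 0.0565 and 0.44, SE 0.0673). With LPS 8 rose and 4 fell in WT cells, where 31.2% of all genes rose and 30.1% fell. Among those that rose was Cgas, which encodes the DNA sensor that signals to STING.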

How the data were processed

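The 7 members, the gene lists and the motifs were chosen with earlier results of these data known. The authors aligned single-end 50-base reads to GRCm38 with GSNAP (limma and R 3.2.2 are also named in the submitters' processing notes), and summed the reads falling on exons by Entrez gene. These raw counts were deposited for 18 libraries. The counting program, its treatment of reads with several matches and the annotation release are not given in the sources used here. The RPKM that the authors deposited equals the count divided by gene width and by 1 total per library, and was used only as that check. RPKM and CPM in the text were computed from the counts and the library sizes after TMM scaling (factors 0.958 to 1.04). RefSeq named 89.1% of the 28096 genes.

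edgeR 4.0.16 (R 4.3.3) was fitted to the counts of all 18 libraries, with its expression filter (14161 genes kept), 1 term for each of the 6 groups and the quasi-likelihood test, since the study's limma models had a single term. Calls are at a Benjamini-Hochberg adjusted p under 0.05 over the tested genes. The SE of a log2 fold change is its size over the square root of F. The procedure was tested on simulated data. Ratios of summed reads have exact 95% binomial intervals. The alternatives were limma 3.58.1 with voom, DESeq2 1.42.0, RLE normalization, 2 other filters, a replicate block, only the groups compared, 2 stricter thresholds, summed family counts, and each library left out.

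Libraries called replicate 1 are unnumbered in the labels and were so named because 2 and 3 were taken. Deviations from the group means of same-numbered libraries correlated at 0.266 on average over 45 pairs (43 over 0.1, lowest 0.055), against -0.132 for other pairs, and every WT and Ubqln1-/- LPS pair was over 0.1. The numbers were therefore taken to pair the LPS libraries between genotypes, as a hint from the data. For resting libraries 1 pair between genotypes was at 0.0826, and they were not taken as paired between genotypes. Within a genotype, same-numbered libraries of different conditions correlated at 0.228 to 0.516 (WT) and 0.257 to 0.329 (Ubqln1-/-). For all 18 libraries the closest library of another group had the same number. The reported fit has no replicate block. With the block, the SE for anti-IgM in WT cells was 0.0937 in place of 0.204 for Ifi203, but 0.166 in place of 0.165 for Ifi214.

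Genes named are the members, the other PYHIN genes, the 3 most abundant genes of each list and any called between genotypes, Ubqln1, and the genes most like each member. Others, among them Stat2, Nlrc4, Naip2, Naip5, Pycard, Casp1, Il1b, Cgas, Sting1, Trex1 and Zbp1, are named as list members called and were picked after their values were seen. Sequences and positions are RefSeq's for GRCm38.p6, and transcripts GENCODE's. Protein sequences were not used here.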

Additional observations from a re-analysis of the deposited data

How the results depend on the processing

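Of 1907 log2 fold changes of single members recomputed under an alternative, 1899 moved by less than the spread between replicates and 8 by more, and no called value changed sign. The 8 were all of Ifi208 without WT LPS replicate 2 and of Ifi204 without Ubqln1-/- anti-IgM replicate 1. All 168 mean RPKM values stayed within 1 SD, but where 1 of the 3 libraries was left out this was fixed in advance. A mean of 3 values cannot move by 1 SD when 1 is dropped, so nothing is read from those. Summing the counts of the family gave -1.46 in place of a median of -1.65 for anti-IgM in WT cells, and 1.39 in place of 1.63 for LPS against anti-IgM in WT cells. The count of members called was within 1.5 times the value reported in all other cases than these. For genotypes after LPS, where 1 was reported, limma with voom gave 0, only the groups compared gave 0, the replicate block gave 4, the block with only the 6 LPS libraries gave 3, a log2 fold change over 1 gave 0, the study's thresholds (log2 fold change over 2, adjusted p under 0.001) gave 0, and leaving out single libraries gave 0 to 2. At the study's thresholds 1 member was called for anti-IgM in each genotype, 1 for LPS in WT and 0 in Ubqln1-/- cells, and 2 and 0 for LPS against anti-IgM. A log2 fold change over 1 left 1 and 0 members for LPS in WT and Ubqln1-/- cells and 4 for LPS against anti-IgM in Ubqln1-/- cells. The shares of all genes at these stricter thresholds were not counted, so nothing is read from the counts of members there. Leaving out single libraries gave 1 to 4 members for LPS in WT cells (3 reported, 1 without WT resting replicate 3), and 0 to 1 for the difference between LPS responses. In the comparisons other than LPS in WT cells and genotypes after LPS, the replicate block changed no count of members. The cause of these changes was not tested.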
